A study of Mus musculus with 2254 samples.

Results

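The genes described here were 10 ligands and receptors of the transforming growth factor beta (TGF-beta) and bone morphogenetic protein (BMP) family, chosen by name from the 30950 entries of the count table. The ligands were Tgfb1, Tgfb2, Tgfb3 and Inhba, the signalling receptors were Tgfbr1, Acvrl1, Tgfbr2 and Bmpr2, and the co-receptors were Tgfbr3 and Eng. Single cells from the brains of adult C57BL/6 mice were sorted by fluorescence into 384-well plates. Their polyadenylated RNA was read over its full length by the plate-based method Smart-seq2. The groups were 1127 cells labelled KO for Notch3 and 1127 labelled WT, and Notch3 is a receptor of vascular smooth muscle cells and pericytes. KO and WT mice alike carried SM22-Cre and Rosa26-stop-tdTomato, so that Cre under a smooth muscle promoter turned on a red reporter. The sources used here do not say which Notch3 allele, sort gates or animals stand behind the cells.

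Ligands of this family bind pairs of type I and type II serine/threonine kinase receptors, which phosphorylate Smad proteins that enter the nucleus and alter transcription. TGF-beta and activin act mainly through Smad2 and Smad3, and BMPs mainly through Smad1, Smad5 and Smad9. In blood vessels, the type I receptor ALK1 (Acvrl1) and the co-receptor endoglin (Eng) carry BMP9 and BMP10 signals in endothelial cells, and TGF-beta promotes the contractile state of smooth muscle. Human mutations in ENG and ACVRL1 cause hereditary haemorrhagic telangiectasia.

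The start regions of 3 genes with unlike cell distributions are shown first, as the 250 bases before the gene's start, from RefSeq on GRCm38.p6. Eng and Tgfbr2 had their highest class level in endothelial-like cells, and Inhba in smooth muscle-like cells. For Tgfbr2 the endothelial-like level was 1.1 times that of microglia or macrophage-like cells, and the plates of these classes overlapped. The windows lie at chr2:32646345-32646594 (plus strand) for Eng, chr9:116175364-116175613 (minus strand) for Tgfbr2 and chr13:16011601-16011850 (plus strand) for Inhba. Capitals mark AGGAAG on either strand, a core sequence bound by ETS factors, several of which act in endothelium.
Eng: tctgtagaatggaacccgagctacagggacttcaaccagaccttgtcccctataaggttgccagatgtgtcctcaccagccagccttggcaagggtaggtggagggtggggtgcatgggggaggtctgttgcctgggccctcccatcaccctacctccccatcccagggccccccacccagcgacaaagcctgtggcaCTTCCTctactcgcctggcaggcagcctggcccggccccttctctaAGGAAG
Tgfbr2: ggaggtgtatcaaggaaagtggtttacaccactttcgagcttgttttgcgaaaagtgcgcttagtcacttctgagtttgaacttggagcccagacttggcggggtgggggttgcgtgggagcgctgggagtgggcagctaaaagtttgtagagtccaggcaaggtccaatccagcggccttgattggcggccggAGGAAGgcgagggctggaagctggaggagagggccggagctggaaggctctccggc
Inhba: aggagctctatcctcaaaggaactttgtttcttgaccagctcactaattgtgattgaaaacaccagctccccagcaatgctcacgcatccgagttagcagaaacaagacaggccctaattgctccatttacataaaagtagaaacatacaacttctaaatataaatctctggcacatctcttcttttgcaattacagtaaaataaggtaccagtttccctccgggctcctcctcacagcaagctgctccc
AGGAAG occurred 2 times in the Eng window, 1 time in the Tgfbr2 window and 0 times in the Inhba window. It also occurred 1 time each in the Tgfb1 and Bmpr2 windows and in 1 of the 2 Tgfbr1 windows, and 0 times in that of Tgfb2, whose highest class level was endothelial-like too. Of 32851 mouse windows of the same length, 29.5% held it on either strand, so a match is a description and not a binding site. RefSeq windows were matched for 7 of the 10 genes, and not for Acvrl1, Tgfb3 and Tgfbr3.

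By their names, the KO cells came from plates 043, 467 and 471, while plates 044, 468 and 469 held the WT cells. Of the cells, 2252 passed a filter of 50000 counts and 1000 detected genes. Before the filter the median was 291839 counts in KO and 291905 in WT cells. Plates 043 and 044 are called earlier and the other 4 later, from their numbers alone. No animal was named, so each genotype counted as 1 sample, no test was possible between genotypes, and the spread over plates is a description. Cells were clustered without Notch3, the 10 genes and the pathway genes below, and clusters were named from marker lists. Levels are depth-scaled counts (CPM) summed over the cells of a class on a plate, as mean ± SD over plates with at least 10 such cells. There were 6 such plates for smooth muscle-like, pericyte-like, fibroblast-like and ependymal-like cells, 5 for endothelial-like, 3 for oligodendrocyte-like and 2 each for astrocyte-like and microglia or macrophage-like cells. For the last 2 classes these were WT plates 468 and 469, so their levels hold no KO plate, unlike those of the other classes. The named classes carried their markers, with 4380.1 CPM of Myh11 in smooth muscle-like, 1900.2 CPM of Cldn5 in endothelial-like, 2418 CPM of Dcn in fibroblast-like, 1850.5 CPM of Aqp4 in astrocyte-like and 988 CPM of Ccdc153 in ependymal-like cells. Pericyte-like cells had 492 CPM of the pericyte marker Kcnj8 beside 2227 CPM of Myh11, so they also carried smooth muscle RNA. Of the pericyte markers, Kcnj8 was read in 48.5% of these cells and Rgs5 in 100%, while the smooth muscle marker Acta2 was read in 96.5%. Acta2 had 5276, 5436 and 4323 CPM on KO plates of this class, against 5296, 757 and 1999 CPM on WT plates. As a check of the labels, Notch3 had 57.7, 99 and 113 CPM on KO plates, against 178, 720 and 1074 CPM on WT plates in smooth muscle-like cells. It was lower on every KO plate, and WT plate 044 held less than the other WT plates.

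Tgfb3, which encodes a secreted TGF-beta ligand (chr12:86056745-86079041, minus strand), was the main ligand of smooth muscle-like cells. It reached 601, 447 and 548 CPM on KO plates and 719, 504 and 512 CPM on WT plates, and 81.2% of the 990 cells had a read (exact binomial 95% interval 78.6 to 83.6%). Intervals here cover counting error only, because amplified reads lacked molecular identifiers and are not separate molecules. The class mean of 555 ± 94.9 CPM was 2.73 times that of pericyte-like cells (203 ± 111 CPM), and the plates of these classes did not overlap. Per kilobase of exon, its mean level was 164 CPM in smooth muscle-like cells, against 27 CPM for Tgfb2, 6.58 CPM for Inhba and 0.528 CPM for Tgfb1. Fibroblast-like cells had 5.87 ± 7.06 CPM, and microglia or macrophage-like cells had 0 CPM on both plates with at least 10 of them. Exons of Gm37804 and Gm48008 overlap Tgfb3 on the other strand, and reads in the shared stretches cannot be told apart here. The strand setting of the counting was not given. Gm37804 itself had 48, 26.9 and 36.5 CPM on KO plates and 56.6, 41 and 35.1 CPM on WT plates of smooth muscle-like cells.

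Tgfb2, a TGF-beta ligand that needs the co-receptor betaglycan for strong receptor binding (chr1:186622792-186705989, minus strand), was spread over more classes. It was highest in endothelial-like cells at 307 ± 149 CPM, followed by oligodendrocyte-like cells at 203 ± 133 CPM and smooth muscle-like cells at 156 ± 27.8 CPM. The plates of neighbours in this order overlapped. Endothelial-like cells had 508 and 419 CPM on KO plates and 207, 161 and 240 CPM on WT plates. On the same WT plates smooth muscle-like cells had 201, 159 and 172 CPM, so the first rank rested mainly on the KO plates. Ependymal-like cells held 74.5 ± 38.2 CPM and astrocyte-like cells, on WT plates only, 48.3 ± 4.08 CPM, while fibroblast-like cells had 9.3 ± 8.29 CPM. Among oligodendrocyte-like cells, KO plate 471 had 355 CPM and the WT plates had 151 and 103 CPM. That class also held 168 CPM of Myh11, and the part of smooth muscle RNA in its Tgfb2 level was not tested. An exon of Gm29491 overlaps Tgfb2 on the other strand.

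Tgfb1, the TGF-beta ligand best known from immune cells (chr7:25687002-25705077, plus strand), was sparse. Microglia or macrophage-like cells had 24.7 and 16.5 CPM on their WT plates, and 50.9% of them had a read. Their mean was 3.7 times that of endothelial-like cells (5.57 ± 1.9 CPM), without overlap of plates. Smooth muscle-like cells had 2.66 ± 1.84 CPM, and 0 of 204 ependymal-like cells had a read.

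Inhba encodes the beta A subunit of activin A (chr13:16011851-16031621, plus strand) and was highest in smooth muscle-like cells among the named classes. Its level there was 38.7, 28.5 and 27 CPM on KO plates and 46.9, 82.2 and 29 CPM on WT plates. The mean of 42.1 ± 21.1 CPM was 5.44 times that of oligodendrocyte-like cells, the next named class, with no overlap of plates. Outside the named classes, cluster 14, led by Prss56, had 43.8 and 93.7 CPM on WT plates 468 and 469, overlapping the smooth muscle-like plates. The gene was read in 18.3% of smooth muscle-like cells (15.9 to 20.8%), 3.0% of pericyte-like and 1.89% of endothelial-like cells. After thinning every cell to 50000 counts the shares were 15.5%, 1.5% and 0.943% in the same order.

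**Figure D1:**
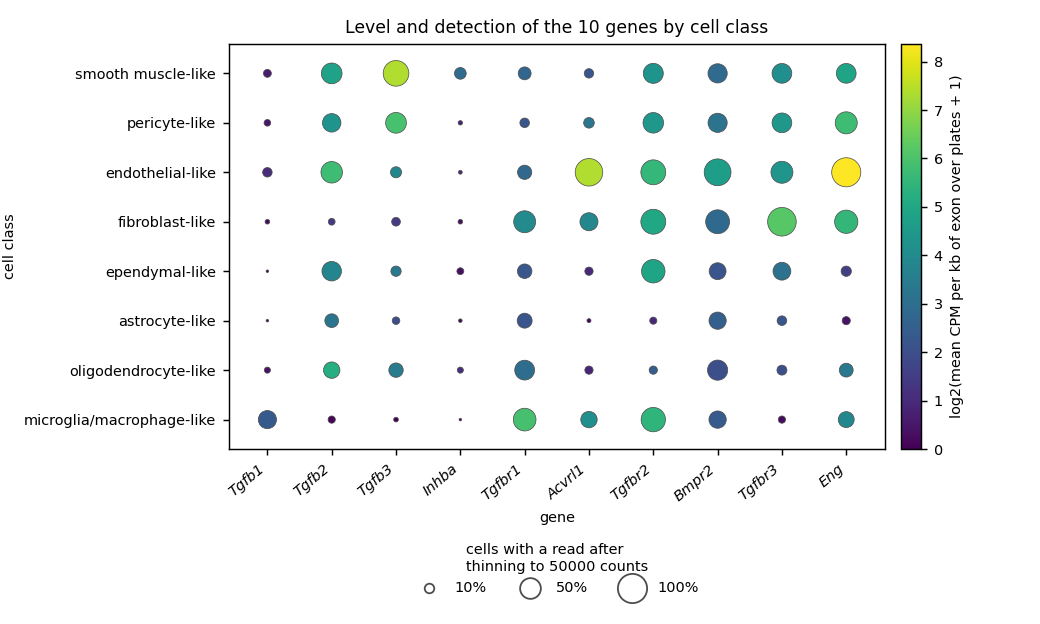
The 10 genes in 8 cell classes. Colour gives log2 of the mean CPM per kilobase of exon over plates plus 1, and circle area grows with the share of cells with a read after thinning to 50000 counts. Eng (329.6 CPM per kilobase) and Acvrl1 (164) stand out in endothelial-like cells, Tgfb3 (164) in smooth muscle-like cells and Tgfbr3 (70.9) in fibroblast-like cells.

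Among the type I receptors, Acvrl1 was an endothelial gene in these data and Tgfbr1 was not. Acvrl1, encoding ALK1 (chr15:101128522-101145336, plus strand), had 592 and 792 CPM on KO plates and 743, 609 and 770.4 CPM on WT plates in endothelial-like cells, and 91% of the cells had a read. The mean of 701 ± 94 CPM was 9.96 times that of microglia or macrophage-like cells (70.4 ± 56.9 CPM), the next class, and the plates did not overlap. Smooth muscle-like cells had 15.7 ± 10.9 CPM, and 14.3% of them had a read. Gm16031 overlaps Acvrl1 exons on the other strand.

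Tgfbr1, the TGF-beta type I receptor ALK5 (chr4:47353222-47414931, plus strand), was highest in microglia or macrophage-like cells with 428 and 336 CPM on their WT plates. Their mean was 3.94 times the fibroblast-like level of 97 ± 21.1 CPM, and the plates did not overlap. The other 6 classes lay between 22.7 CPM in pericyte-like and 44.5 CPM in oligodendrocyte-like cells, and neighbours in that order overlapped. Smooth muscle-like cells had 36.7 ± 10.8 CPM.

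The type II receptors were read more widely. Tgfbr2, which binds TGF-beta (chr9:116084293-116175360, minus strand), had 384 ± 107 CPM in endothelial-like, 349 ± 41.3 CPM in microglia or macrophage-like, 253 ± 89 CPM in fibroblast-like and 232 ± 56.5 CPM in ependymal-like cells, and neighbours in this order overlapped. Pericyte-like cells followed at 173 ± 86.8 CPM and smooth muscle-like cells at 158 ± 39.5 CPM. Astrocyte-like cells had 7.63 ± 2.7 CPM of Tgfbr2 and 23.6 ± 6.84 CPM of Tgfbr1, and the shares of cells with a read were 10.9% and 55.6%.

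Bmpr2, the type II receptor of BMPs (chr1:59763400-59879014, plus strand), was read in every named class. Endothelial-like cells had 427 ± 115 CPM, 2.95 times the 145 ± 75.1 CPM of pericyte-like cells, and the plates did not overlap. The remaining classes lay between 54.3 CPM (oligodendrocyte-like) and 112 CPM (smooth muscle-like).

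The co-receptors marked different classes. Eng, the co-receptor endoglin (chr2:32646595-32682669, plus strand), had the highest class level of the 10 genes per kilobase of exon, 329.6 CPM in endothelial-like cells. It reached 1422 and 1538 CPM on KO plates and 1284, 1137 and 1291 CPM on WT plates there, and 99.1% of the cells had a read. The mean of 1334 ± 152 CPM was 6.2 times that of pericyte-like cells (215 ± 125 CPM), without overlap. Fibroblast-like cells had 183 ± 68.9 CPM and smooth muscle-like cells 115 ± 31.6 CPM. Exons of Fpgs overlap Eng on the other strand.

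Tgfbr3, the co-receptor betaglycan that presents TGF-beta and binds inhibin (chr5:107106570-107289629, minus strand), was highest in fibroblast-like cells. They had 442, 394 and 441 CPM on KO plates and 549.7, 420.3 and 537 CPM on WT plates, and 95.9% of them had a read. Their mean of 464 ± 63.9 CPM was 3.38 times that of pericyte-like cells (137 ± 51 CPM), and the plates did not overlap. Endothelial-like cells followed at 128 ± 36.5 CPM and smooth muscle-like cells at 108 ± 21.4 CPM, and these neighbours overlapped. Gm43422 overlaps Tgfbr3 exons on the same strand, so reads in that stretch cannot be told apart.

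**Figure D2:**
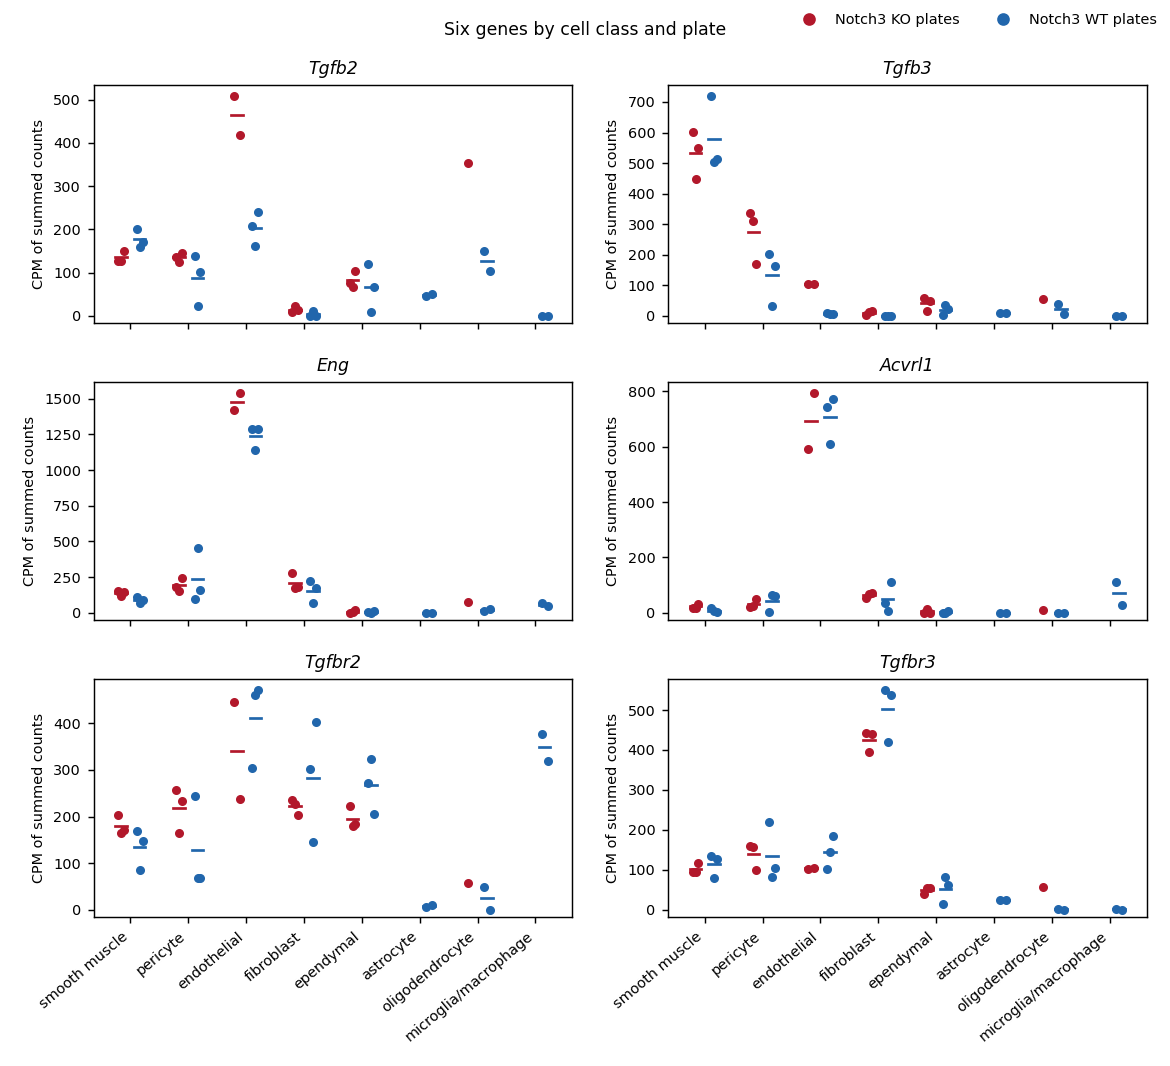
CPM of summed counts of 6 genes on each plate with at least 10 cells of a class, with KO plates left of WT plates and a bar at the mean where a genotype had more than 1 plate. Eng and Acvrl1 lie above every other class in endothelial-like cells, Tgfb3 in smooth muscle-like cells and Tgfbr3 in fibroblast-like cells.

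The endothelial-like class joined 2 clusters, and levels of the genes were not the same in both. Cluster 15 (44 cells) was led by genes that include Gkn3, Bmx and Sema3g, known from arterial endothelium, and cluster 8 (168 cells) by genes that include Slc38a5 and Kdr. Pooled over plates, cluster 15 had 412 CPM of Tgfb2 against 226 CPM in cluster 8, and 79.5 against 11.4 CPM of Tgfb3. These pooled values mix genotypes, with 28 KO and 16 WT cells in cluster 15, and 12 KO and 156 WT cells in cluster 8. Among KO cells, Tgfb2 was 526 CPM in cluster 15 and 285 CPM in cluster 8, and Tgfb3 114 and 94.3 CPM. Among WT cells, Tgfb2 was 174 CPM in cluster 15 and 222 CPM in cluster 8, the other way round, and Tgfb3 was low in both, at 8.09 and 5.81 CPM. For the receptors the direction between the clusters was the same within each genotype. Pooled over genotypes, Acvrl1 stood at 862 against 673 CPM, and Eng at 1492 against 1221 CPM. Cluster 15 was the lower one for Bmpr2 with 339 against 557 CPM, for Tgfbr2 with 288 against 469.7 CPM, and for Tgfbr3 with 73.9 against 177 CPM. Cluster 15 also held 725 CPM of Myh11, against 46.4 CPM in cluster 8, and the part of smooth muscle RNA in these levels was not tested.

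Fibroblast-like cells split at resolution 2 into a cluster led by Slc6a13 (109 cells) and a cluster led by Inmt and Lum (61 cells). The Slc6a13 cluster had 516 CPM of Tgfbr3, 130.2 CPM of Eng and 42.2 CPM of Acvrl1, pooled over plates. The Lum cluster had 349 CPM of Tgfbr3, 359 CPM of Eng and 93.6 CPM of Acvrl1. On plates with at least 10 cells, Eng ran from 81.2 to 162 CPM in the Slc6a13 cluster, on KO plates and WT plate 044. In the Lum cluster it ran from 384 to 417 CPM, without overlap, but on KO plates 043 and 471 only. The pooled 359 CPM of the Lum cluster lay below both of these plates, and no WT plate held 10 of its cells. The endothelial marker Cldn5 was low in both, at 2.01 CPM in the Slc6a13 and 5.55 CPM in the Lum cluster.

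Co-detection in single cells followed the class levels. Of 212 endothelial-like cells, 90.1% had reads of both Acvrl1 and Eng (85.3 to 93.8%), and 83% of both Acvrl1 and Bmpr2. The products of the single shares were 90.2% and 82%. In smooth muscle-like cells Acvrl1 and Eng were read together in 9.6% of 990 cells (7.83 to 11.6%), where the product of the single shares was 7.68%. They were read together in 9.5% of pericyte-like and 34.7% of fibroblast-like cells, against products of 9.6% and 30.6%. Reads of both Tgfbr1 and Tgfbr2 were found in 57.1% of fibroblast-like, 30.2% of endothelial-like and 15.8% of smooth muscle-like cells. The products of the single shares for that pair were 55.2%, 30.5% and 15.5%, each inside the interval of the observed share.

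Over 36 sums of a class on a plate, from 8 classes, the gene most like Acvrl1 in log2(CPM + 1) among 12303 genes was Eng, with Pearson's r of 0.88. Eng was nearest to Abcg2, a transporter of brain endothelium, with r of 0.91. Tgfb3 was nearest to Gm37804 with r of 0.93, the gene that overlaps it, and then to Pdlim3, a muscle Z-disc protein, with r of 0.89. Inhba was nearest to Actg2, the smooth muscle gamma actin, with r of 0.79. The nearest genes were Nr2f2 for Tgfbr3 (r of 0.84), Sorbs2 for Tgfb2 (0.89), Vamp8 for Tgfb1 (0.85), Clic1 for Tgfbr2 (0.85), St6galnac2 for Bmpr2 (0.82) and Ptpn6 for Tgfbr1 (0.69). These values are descriptions, since sums of 1 class or 1 plate share cell type, library and depth.

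Within smooth muscle-like cells, Inhba stood highest in cluster 11 (109 cells, 56 KO and 53 WT), whose leading genes included Pappa2 and Dmp1. It had 155, 49.8 and 82.4 CPM on KO plates and 159 CPM on WT plate 044, the only WT plate with at least 10 of its cells. Clusters 2, 3, 6 and 10 had between 12.3 and 66.1 CPM on any plate, so cluster 11 overlapped them only through KO plate 467. Cluster 9 (156 cells), in which Fosl2 and Fosb were prominent, had 9.99, 5.7 and 1.48 CPM on KO plates and too few WT cells for a plate value. Inhba was among the 10 leading genes of cluster 11. It was kept out of the clustering, but members and marker lists were chosen with earlier results of these data known. This is a description and not separate support.

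The share of cells with an Inhba read was 32.1% in cluster 11 and 3.85% in cluster 9. In cluster 11 a read was found in 7 of 12, 3 of 15 and 7 of 29 cells on KO plates, and in 17 of 39 cells on WT plate 044. On KO plate 467, 63.5% of these counts came from 1 cell. Pooled Tgfb3 was 409 CPM in cluster 11, against 743 CPM in cluster 3 and 685 CPM in cluster 6, both of which have the contractile gene Cnn1 among their leading genes.

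At resolution 2 a smooth muscle-like cluster of 68 cells, led by Myl1, Slc47a2 and Rarres1, held 61 KO and 7 WT cells. It had 201, 142 and 268 CPM of Tgfb3 and 28.7, 44.3 and 91.1 CPM of Tgfb2 on KO plates, below the class levels on those plates. No WT plate held 10 of its cells, so no comparison by genotype can be given.

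**Figure D3:**
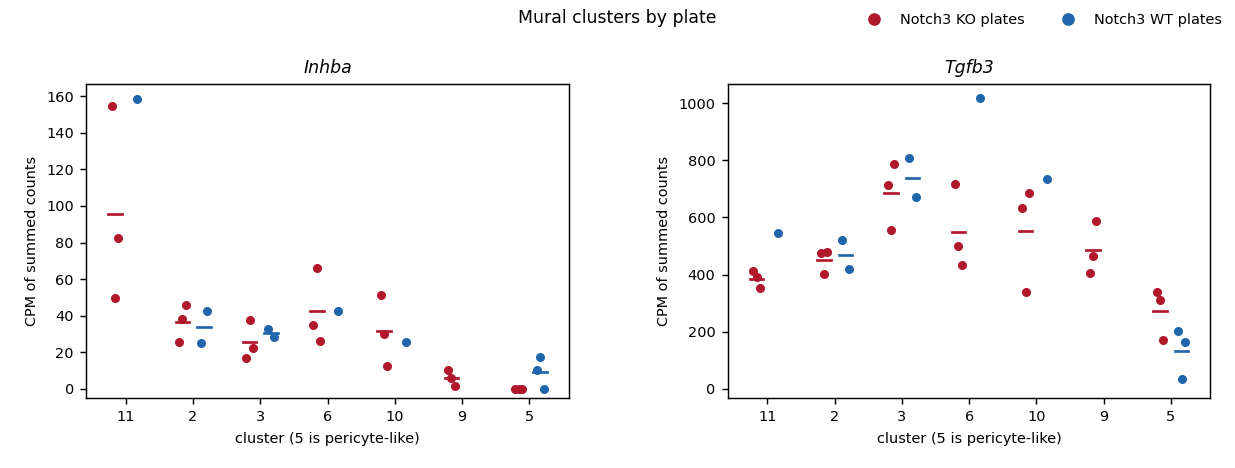
CPM of summed counts of Inhba and Tgfb3 in 6 smooth muscle-like clusters and pericyte-like cluster 5, on plates with at least 10 cells of the cluster, with KO plates left of WT plates. Inhba is highest in cluster 11 on KO plates 043 and 471 and on WT plate 044, and lowest in clusters 9 and 5.

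None of the 10 genes met the size rule between KO and WT in smooth muscle-like cells (596 KO and 394 WT). Differences are of mean log2(CPM + 1) between KO and WT plates after TMM scaling. The rule asked for at least 2-fold, no overlap of plates, a mean of 10 CPM and reads in 10% of the cells of a genotype, and 2.87% of 9573 measured genes passed it. Tgfb1 was too low to count as measured. KO and WT plates were apart for 3 of 9 measured members, against 8.96% of all measured genes. KO lay above WT for 2, against 4.7% of genes, and below for 1, against 4.26%. The members' median difference was 0.19, and that of all measured genes 0.05.

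Among the ligands, Tgfb2 had 141, 122 and 144 CPM on KO plates, against 223, 150.3 and 162 CPM on WT plates. Every KO plate was below every WT plate, with a log2 difference of -0.37. Pooled over plates, 51% of KO and 65.2% of WT cells had a read, and WT plate 044 held 312 of the 394 WT cells. In cluster 3, without TMM scaling, Tgfb2 plates overlapped, with 115, 108 and 213 CPM on KO plates and 192 and 163 CPM on WT plates. In cluster 2 the KO plates lay below both WT plates with at least 10 cells, and in cluster 6 below the only such WT plate. Tgfb3 had 663, 426 and 525 CPM on KO plates and 799, 477 and 483 CPM on WT plates, a log2 difference of -0.10 with overlapping plates. Inhba had 42.7, 27.2 and 25.9 CPM on KO plates and 52.1, 77.7 and 27.3 CPM on WT plates, a log2 difference of -0.61 with overlapping plates. Cluster 9, with little Inhba, held 147 KO but 9 WT cells, and without it the Inhba difference was -0.30. Without WT plate 469 the Inhba difference was -1.01 and met the rule.

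Among the receptors, Tgfbr1 had 56.3, 46 and 33.4 CPM on KO plates, against 30.7, 23 and 32.1 CPM on WT plates, a log2 difference of 0.63. Every KO plate was above every WT plate, though KO plate 471 and WT plate 469 lay close together. Bmpr2 had 121, 123 and 115 CPM on KO plates, against 102, 97.2 and 114 CPM on WT plates, a log2 difference of 0.19, again without overlap. Without the cluster in which Fosl2 was prominent, the Bmpr2 difference was 0.10, the lowest of all settings. In single clusters, on plates with at least 10 cells, Bmpr2 plates overlapped in clusters 2 and 3. In clusters 10 and 11 the KO plates lay above the only WT plate, and in cluster 6 below it. Tgfbr1 plates overlapped in clusters 2, 3, 10 and 11, and in cluster 6 the KO plates lay above the only WT plate. Tgfbr2, Tgfbr3 and Eng differed by 0.48, -0.13 and 0.64 on the log2 scale with overlapping plates. Eng stood at 169.7, 116 and 138 CPM on KO plates and 125, 68.6 and 82 CPM on WT plates. The earlier plates alone gave 0.85 for Tgfbr1, 0.23 for Bmpr2 and -0.65 for Tgfb2, and the later plates alone 0.51, 0.17 and -0.23 in the same order.

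Acvrl1 had the largest difference of the 9 genes, 1.82 on the log2 scale. It had 21.2, 17.9 and 31 CPM on KO plates and 18.1, 5.95 and 1.33 CPM on WT plates. The plates overlapped by KO plate 467 and WT plate 044, which were nearly level. The earlier plates alone gave 0.22 and the later plates alone 2.61, and without WT plate 044 the rule was met at 2.56. The values of 2.61 and 2.56 leave out WT plate 044 and rest on 29 and 53 WT cells on plates 468 and 469. Pooled over plates, 14.8% of KO and 13.7% of WT cells had a read. The rule was met in 9 of 19 other settings. The summed level of 8 endothelial markers in these cells was 49.8, 56.8 and 47.9 CPM on KO plates and 67, 7.97 and 35.8 CPM on WT plates. It was lowest on WT plate 468, and its part in the Acvrl1 values was not tested.

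**Figure D4:**
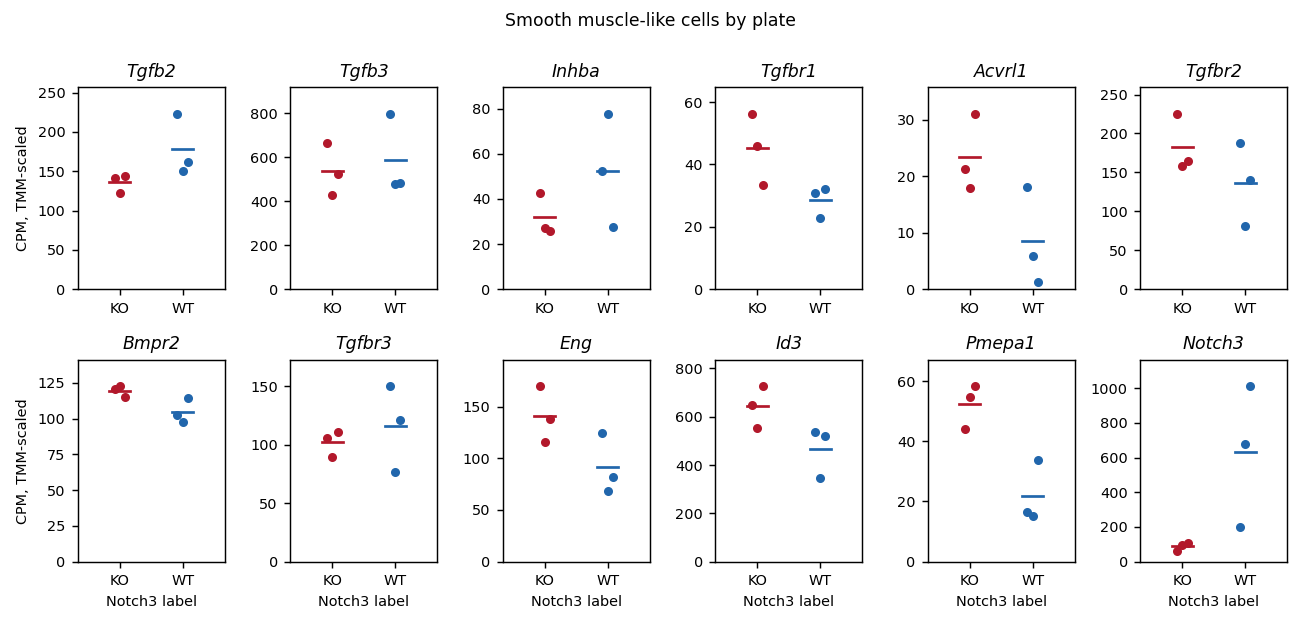
TMM-scaled CPM in smooth muscle-like cells on each plate, for 9 of the 10 genes, the targets Id3 and Pmepa1 and the check gene Notch3, with KO left of WT and bars at the mean of 3 plates. KO plates lie above all WT plates for Tgfbr1, Bmpr2, Id3 and Pmepa1 and below them for Tgfb2 and Notch3.

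A list of 63 further genes of the pathway held 41 measured genes in smooth muscle-like cells. Of these, 2 were higher in KO, against 2.04% of all measured genes, and 0 were lower, against 0.836%. The list's median difference was 0.23. Among the higher genes, Pmepa1, a TGF-beta target that dampens Smad signalling, had 44.2, 54.8 and 58.3 CPM on KO plates, against 16.3, 15 and 33.9 CPM on WT plates, a log2 difference of 1.32. The genes of the list with the highest levels did not meet the rule. Ltbp1, which stores latent TGF-beta in the matrix, averaged 999.7 ± 268 CPM over KO plates and 847 ± 201 CPM over WT plates. Crim1, a membrane protein that binds BMPs, averaged 638 ± 277 CPM over KO plates and 506 ± 207 CPM over WT plates. Id3, a BMP target, averaged 643 ± 86.7 CPM over KO plates and 468 ± 104 CPM over WT plates, a log2 difference of 0.48 without overlap of plates. Lrrc32, which tethers latent TGF-beta, averaged 525 ± 26.4 CPM over KO plates and 445 ± 60.2 CPM over WT plates.

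Pericyte-like cells were 150 KO and 50 WT, with 27, 12 and 11 on WT plates 044, 468 and 469. Of 8 measured members, 0 met the size rule, against 9.14% of 10002 genes. Plates did not overlap for 0, against 12.5% of genes. Tgfb3 had 379.8, 303 and 164 CPM on KO plates and 217, 30 and 158 CPM on WT plates, a log2 difference of 1.38 with overlapping plates. The summed level of 8 smooth muscle markers was 14952, 14658 and 12376 CPM on KO plates and 15444, 3487 and 7673 CPM on WT plates, lowest on WT plate 468 as Tgfb3 was. All 8 endothelial markers had a lower mean in KO, with sums of 148, 95 and 85 CPM on KO plates and 134, 529.6 and 1179 CPM on WT plates. The part of these markers in the differences was not tested. KO and WT cells fell unequally over finer clusters. At resolution 2, pericyte-like clusters apart from the Ccl19 cluster held 48 KO and 36 WT cells and 0 KO and 12 WT cells. A cluster led by Lin7a, a leading gene of this class, held 131 KO and 16 WT cells and stayed unnamed. Its best-scoring marker list was smooth muscle, at 0.794, below the 0.8 asked for a name.

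Of 39 measured pathway genes in pericyte-like cells, 3 were higher in KO, against 7.01% of all genes, and 1 was lower, against 2.13%. The list's median was 0.58, and that of all genes 0.32. The BMP ligand Bmp2 had 154, 78.2 and 53.9 CPM on KO plates, against 50.7, 4.37 and 35 CPM on WT plates, a log2 difference of 2.03. Bmp5, another BMP ligand, had 85.4, 61.5 and 56.5 CPM on KO plates, against 142, 245 and 164 CPM on WT plates, a log2 difference of -1.41. Pmepa1 was higher by 1.58, but by 0.23 when cells were clustered more finely, a setting in which Bmp2 and Bmp5 did not meet the rule either. On the earlier plates alone Bmp5 was at -0.73 and Pmepa1 at 0.94. Acvr1, the BMP type I receptor ALK2, had 22.3, 29.5 and 64.1 CPM on KO plates, against 0, 0 and 0.493 CPM on WT plates, a log2 difference of 4.97 that turned to -2.57 in that setting. Acvr1 was read in 12% of KO and 2.0% of WT cells, and did not meet the rule without KO plate 467, at 5.09.

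In endothelial-like cells, 2 ligands were higher in KO, in 31 KO cells on plates 043 and 471 set against 172 WT cells on 3 plates. KO plate 467 held 9 such cells and was left out. Tgfb2 and Tgfb3 met the size rule, 2 of 8 measured members, against 11.8% of 10642 genes in either direction and 6.77% upwards. Plates did not overlap for 3 of them, Eng included, against 21.6% of genes. Tgfb3 had 107 and 101 CPM on KO plates, against 9.4, 7.38 and 5.12 CPM on WT plates, a log2 difference of 3.70. Pooled over plates, 71% of KO and 10.5% of WT cells had a Tgfb3 read, and WT plate 469 held 106 of the 172 WT cells. Tgfb2 had 525 and 401 CPM on KO plates, against 208, 164 and 239 CPM on WT plates, a log2 difference of 1.19 that was 0.99 without KO plate 043, just short of 2-fold. On the earlier plates alone the Tgfb3 and Tgfb2 differences were 3.38 and 1.33, and on the later plates alone 3.84 and 1.02. Eng had 1469 and 1473 CPM on KO plates, against 1286, 1154 and 1284 CPM on WT plates, a log2 difference of 0.25. Acvrl1, Tgfbr1, Tgfbr2, Bmpr2 and Tgfbr3 had overlapping plates, with log2 differences from -0.44 to -0.05.

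Most KO cells of the class were in cluster 15 and most WT cells in cluster 8. Within cluster 15, the plates with at least 10 cells were KO plate 471 with 104 CPM of Tgfb3 and WT plate 044 with 12.6 CPM. Tgfb2 stood at 436 CPM on that KO plate and 249.9 CPM on that WT plate. Within cluster 8, pooled Tgfb3 stood at 94.3 CPM for KO, against 5.81 CPM for WT cells. Smooth muscle markers moved with it there: Myh11 had 447 CPM in KO, against 19.6 CPM in WT cells, and Acta2 1541 CPM in KO, against 30.6 CPM in WT cells. Over the whole class, the summed level of 8 smooth muscle markers was 3284 and 5400.5 CPM on KO plates and 3092, 368 and 229 CPM on WT plates, and their part in the differences of Tgfb2, Tgfb3 and the pathway genes below was not tested.

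Of 41 measured pathway genes in endothelial-like cells, 10 met the rule upwards in KO, against 6.77% of all genes, and 2 downwards, against 5.06%. The list's median was 0.48 and that of all genes 0.00619. The higher ones included the ligands Bmp2 and Bmp6, the receptor Bmpr1a, the activation genes Ltbp1, Itgb5 and Thbs1, the antagonists Nog and Nbl1, and the target Ctgf. The lower ones were Bmp5 and the signal transducer Smad1, and Bmp5 met the rule in 6 of 14 other settings. Bmp6 had 25.1 and 20.5 CPM on KO plates, against 0, 0 and 0.0522 CPM on WT plates, and was read in 19.4% of KO and 1.16% of WT cells. Ltbp1 had 214 and 256 CPM on KO plates, against 125, 20.1 and 7.44 CPM on WT plates. On the earlier plates alone Nbl1, Bmpr1a, Ltbp1 and Smad1 fell short of 2-fold, at 0.12, 0.73, 0.77 and -0.88. On the later plates alone Nog, with a log2 difference of 2.42, was at 0.80. Without 1 plate, Nbl1 was at 0.78 (WT plate 469), Smad1 at -0.63 (KO plate 471) and Ctgf at 0.90 (WT plate 468). The most abundant pathway genes overlapped: Ltbp4, a binder of latent TGF-beta, averaged 1038 ± 499.5 CPM over KO plates and 994 ± 192 CPM over WT plates. The BMP targets Id1 and Id3 averaged 499 ± 13.8 CPM over KO plates and 499 ± 28.8 CPM over WT plates, and 714 ± 106 CPM over KO plates and 746 ± 78.5 CPM over WT plates.

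**Figure D5:**
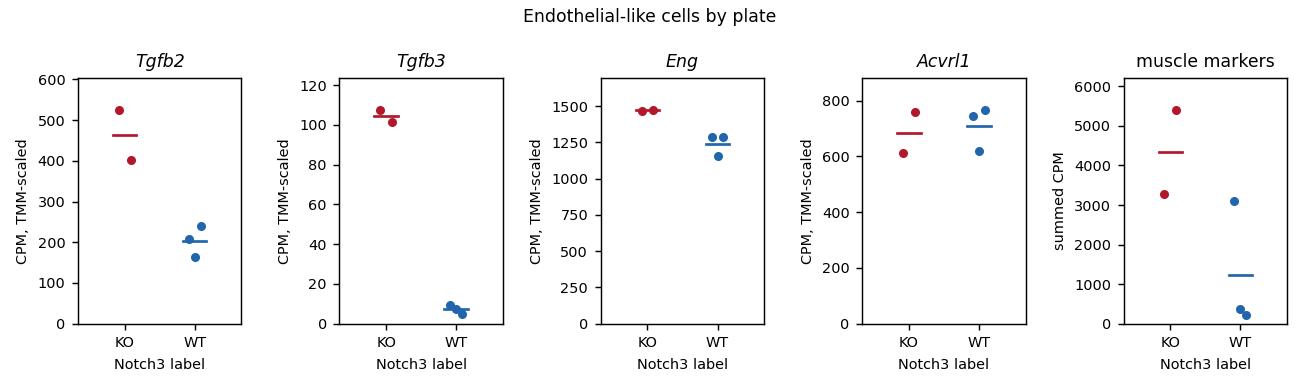
TMM-scaled CPM of Tgfb2, Tgfb3, Eng and Acvrl1, and the summed CPM of 8 smooth muscle markers, in endothelial-like cells on each plate, with KO (2 plates) left of WT (3 plates) and bars at the means. Tgfb3 has 107 and 101 CPM on KO plates and 9.4, 7.38 and 5.12 CPM on WT plates.

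Fibroblast-like cells were 131 KO and 39 WT, with 14, 11 and 14 on WT plates 044, 468 and 469. Of 8 measured members, 1 met the size rule, against 6.72% of 11195 genes, and its plates alone did not overlap, against 10.4% of genes. This was Tgfb3, with 4.68, 11.8 and 16.3 CPM on KO plates, against 1.14, 0.335 and 0.344 CPM on WT plates, a log2 difference of 2.78. The shares of cells with a read were 18.3% in KO and 23.1% in WT, where 9 cells held 9 counts in all. Assigning cells by 6 marker genes gave -2.37, and without KO plate 471 the rule was not met, at 2.45. All 8 smooth muscle markers had a higher mean in KO, with sums of 1595, 1318 and 1844 CPM on KO plates and 1087, 473 and 268 CPM on WT plates, and their part was not tested. Tgfbr3, the leading member of this class, had 491, 380.2 and 424 CPM on KO plates and 571, 408 and 517 CPM on WT plates, a log2 difference of -0.20 with overlap.

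Of 51 measured pathway genes in fibroblast-like cells, 4 met the rule upwards, against 5.09% of all genes, and 3 downwards, against 1.63%. The list's median was 0.34 and that of all genes 0.20. The BMP-binding protein Crim1 and the signal transducer Smad3 were among the higher genes, by 2.78 and 1.55 on the log2 scale. Bmp5, the activin receptor Acvr2a and the BMP antagonist Chrd had -1.87, -2.02 and -2.24. Acvr2a had 18.2, 11.1 and 17.3 CPM on KO plates, against 85.5, 62.4 and 50.5 CPM on WT plates, and it met the rule in all 16 other settings. Smad3 had 126, 143 and 111 CPM on KO plates, against 49.3, 82.9 and 18.4 CPM on WT plates. Without WT plate 469, Smad3 was at 0.97. On the earlier plates alone Crim1 was at 0.82, Bmp5 at -0.01 and Chrd at -0.84, all short of 2-fold. Over all other settings, Crim1 and Bmp5 met the rule in 14 of 16 and 14 of 16, and Chrd in 12 of 16. The abundant Nbl1, a BMP antagonist, averaged 799.9 ± 66.7 CPM over KO plates and 695 ± 142 CPM over WT plates, with overlap.

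Ependymal-like cells were 163 KO and 41 WT, with 10, 13 and 18 on WT plates 044, 468 and 469. Of 6 measured members, 0 met the size rule, against 6.84% of 11395 genes. Plates did not overlap for 0, against 11.8% of genes. Tgfbr2 had 239, 177 and 178 CPM on KO plates and 284, 316 and 199.6 CPM on WT plates, a log2 difference of -0.41 with overlap. Of 34 measured pathway genes, 6 met the rule upwards, against 5.26% of all genes, and 0 downwards, against 1.58%. The list's median was 0.45 and that of all genes 0.18. The higher genes were the activin subunit gene Inhbb, Ltbp4, Thbs1, Smad2 and the BMP targets Id1 and Id3. Id1 had 18.4, 45.4 and 31.6 CPM on KO plates, against 6.19, 14.9 and 0.597 CPM on WT plates, a log2 difference of 2.44. Id3 had 38.7, 68.4 and 116 CPM on KO plates, against 13.5, 0 and 0.597 CPM on WT plates, a log2 difference of 4.59, and 1.46 on the earlier plates alone. Inhbb, with 2.12, was at 0.81 without WT plate 468 and at 0.90 on the earlier plates alone. All 8 smooth muscle markers had a higher mean in KO here as well, with sums of 1333, 2074 and 1539 CPM on KO plates and 1571, 225 and 329 CPM on WT plates, and their part was not tested.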

How the data were processed

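Counts were used as the authors deposited them: raw reads by gene symbol in each cell, all whole numbers. The submitters' processing notes name TopHat2 2.1.1, SAMtools 0.1.18, featureCounts of Subread 1.4.6-p5 and GRCm38 (mm10). The sources used here do not give the annotation version, the strand setting or a filter on cells. Deposited totals ran from 49473 to 763059 counts per cell. No columns were identical and 0 were left out.

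Members, gene lists, marker lists and naming thresholds were chosen with earlier results of these data known. Named genes were the 10 members, Notch3, pathway genes past the size rule, up to 4 of the most abundant pathway genes per class, and genes most like each member. Some pathway genes are counted but not reported here by name.

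Cells were clustered on 2000 variable genes, 30 principal components and 20 neighbours (scikit-learn 1.9.0, igraph 0.11.9, leidenalg 0.10.2) at resolution 1, giving 17 clusters, and at resolution 2. A cluster took a list's name at a score of 0.8 with 3 markers in 25% of cells. Cluster 16, with 2.4% of the KO cells against 0.0888% of the WT cells, was kept out of the pericyte-like class after its genes were seen. No doublet caller was run on these plates of single sorted cells, and 153 possible mixed wells were left out in an alternative. Differences used TMM factors (edgeR 4.0.16, R 4.3.3) and a pseudocount of 1 CPM, which understates those of low genes. Exon lengths and coordinates are from GENCODE M21 (GRCm38), which matched 90.3% of entries. Alternatives were DESeq2 1.42.0 size factors, no factors, other cell assignments, thinning and leaving out plates.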

Additional observations from a re-analysis of the deposited data

Results flagged for a closer look

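Tgfb2 differed between KO and WT in opposite directions in 2 classes. In endothelial-like cells both KO plates were above all 3 WT plates, with a log2 difference of 1.19, and in smooth muscle-like cells all 3 KO plates were below all 3 WT plates, with a log2 difference of -0.37. The smooth muscle-like difference did not meet the size rule, and within cluster 3 its plates overlapped. The endothelial-like difference was 0.99 without KO plate 043, just short of 2-fold. Summed smooth muscle markers of endothelial-like cells were 3284 and 5400.5 CPM on KO plates and 3092, 368 and 229 CPM on WT plates. The part of these markers and the difference between the classes were not tested. Most endothelial-like KO cells were in cluster 15 and most WT cells in cluster 8. Within cluster 15, Tgfb2 stood at 436 CPM on KO plate 471 and 249.9 CPM on WT plate 044.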

How the results depend on the processing

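The class with the highest level was the same for 10 of 10 genes from the mean of each cell's CPM and after thinning, and for 8 of 10 when cells were assigned by 6 marker genes, none of which marks microglia. Class levels used no scaling factors from the start. Of the log2 differences of named genes recomputed under alternatives, 669 moved by less than the spread between plates, 35 moved by more, and 2 that had met the rule reversed, namely Acvr1 in pericyte-like cells at resolution 2 (-2.57) and Tgfb3 in fibroblast-like cells by 6 marker genes (-2.37). The cause was not tested.

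Counts of genes past the size rule were 275 in smooth muscle-like, 914 in pericyte-like, 1258 in endothelial-like, 752 in fibroblast-like and 779 in ependymal-like cells. With no filter on level they were 751 in smooth muscle-like, 1469 in pericyte-like, 1251 in fibroblast-like and 1366 in ependymal-like cells. On plates 043 and 044 alone the 5 counts were 490, 2996, 4050, 2843 and 4340 in that class order, and on the later plates alone 1006, 3031, 3446, 2508 and 2094. Without possible mixed wells they were 1602 in pericyte-like, 1464 in fibroblast-like and 2028 in ependymal-like cells. Leaving out 1 plate at a time gave 312 to 989 in smooth muscle-like, 1254 to 2648 in pericyte-like, 1580 to 2915 in endothelial-like, 1040 to 2230 in fibroblast-like and 1062 to 1848 in ependymal-like cells. Fewer plates make an overlap less likely by construction. Alternatives for pericyte-like cells, those without cluster 9 or with cluster 16, and others beyond the first plan were chosen after seeing the data. No paired analysis was possible because the labels give no replicate numbers or animals.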

Other observations

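The genes were also read in 3 clusters outside the named classes. Cluster 14 (53 WT cells, led by Prss56, Gdpd4 and Aqp1) had 43.8 and 93.7 CPM of Inhba on its 2 plates, with 3.44 CPM of Myh11 and 93.6 CPM of Cldn5 pooled over plates. Cluster 17 (19 WT cells, led by Cyp2f2 and Slc47a1) had 332 CPM of Tgfb3, 356 CPM of Tgfbr2 and 137 CPM of Acvrl1, beside 1.28 CPM of Eng, pooled over all its cells. On WT plate 468, the only plate with at least 10 of them, the levels were 164 CPM of Tgfb3, 409 CPM of Tgfbr2 and 130.3 CPM of Acvrl1. Over all 19 cells, Acvrl1 was read in 57.9% of cells and Eng in 21.1%. Cluster 16 (27 KO cells and 1 WT cell, with Ms4a4d, Ccl11 and Ccl19 among its leading genes) had 329.6 CPM of Tgfb3, 228 CPM of Eng and 136 CPM of Acvrl1 on KO plate 043, with 0.846 CPM of Cldn5.

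At resolution 2, a cluster of 12 WT cells with 1414 CPM of Kcnj8 and 18.8 CPM of Acta2 had 1168 CPM of Eng and 457 CPM of Acvrl1. It also held 1356 CPM of Cldn5, and the part of endothelial RNA in these levels was not tested.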
